A study of Rattus norvegicus with 16 samples.

Results

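Described here are 49 genes of primary rat microglia whose mean level was higher with lipopolysaccharide (LPS) than in untreated cells. All were higher still, on average, in cells given both LPS and apolipoprotein A-I (ApoA-I). They were chosen from the deposited TPM values (a transcript level scaled to gene length and library total) of 12 libraries. A gene belonged to the group if its mean with LPS and ApoA-I was at least 2 TPM, if log2((LPS + 1)/(Control + 1)) was at least 0.7, and if log2((LPS+ApoA-I + 1)/(LPS + 1)) was at least 0.4. Of 30560 genes listed, 852 met the first pair of conditions, and 49 of these (5.75%) met the last. Another 440 of the 852 were lowered with ApoA-I by 0.4 or more, and 363 lay between these bounds.

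Microglia are the resident macrophages of the brain. LPS, from the outer membrane of Gram-negative bacteria, is sensed on macrophages by Toll-like receptor 4 and its co-receptors, which switch on NF-kB and interferon regulatory factors and so induce cytokines, chemokines and genes that later restrain the response. ApoA-I is the main protein of high-density lipoprotein and takes up cholesterol that cells export through the transporter ABCA1. In macrophages ApoA-I is mostly known for dampening responses to LPS.

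Wild type cells at day 12 in vitro formed 4 groups of 4 libraries. The LPS+ApoA-I group received LPS at 100 ng/ml for 20 hours with ApoA-I protein at 100 ug/ml in the medium. The LPS group received the same LPS alone, the ApoA-I group received ApoA-I alone, and the Control group received neither. No time of addition is listed here for ApoA-I. Total estimated counts ran between 12304916 and 17262383 per library, and 11902 genes had enough counts for edgeR's quasi-likelihood test. Whether the replicates came from separate cultures or animals is not stated in the labels; the spread behind each p-value is that between these libraries and may be technical. A set of 8 very abundant genes took 1.61% to 12.8% of the counts of a library; in the ApoA-I group it took 9.43% in ApoA-I 2 and 1.61% to 2.66% in the other libraries, and in the LPS group 2.08% in LPS 4 and 10.2% or more in the others.

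Genes are listed under Ensembl identifiers that the RefSeq name table does not pair with symbols, so the members are described by their levels and responses, without gene names or functions. For the same reason the labelled cell type was not set against marker genes. Identifiers are printed for 2 members only, the one that rose most with ApoA-I on top of LPS and the one with the highest level.

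**Figure D1:**
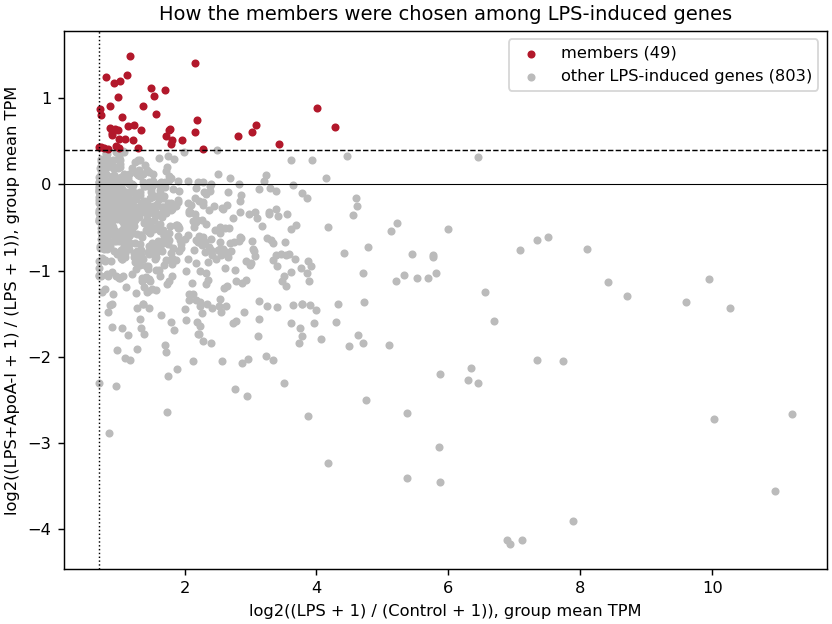
Each point is one of the 852 LPS-induced genes, with the log2 ratio of mean TPM in LPS over Control on the x axis and in LPS+ApoA-I over LPS on the y axis (1 added to each mean). The dashed line at 0.4 and the dotted line at 0.7 are the bounds of the rule, and the 49 members in red lie at 0.41 to 1.49 on the y axis.

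ApoA-I on top of LPS moved most members by less than LPS itself had done. On the TPM scale of the rule, log2 LPS+ApoA-I over LPS ran from 0.41 to 1.49 with a median of 0.64, and 10 members reached 1 or more. For LPS over Control the same measure ran from 0.71 to 4.27 with a median of 1.22; 10 members reached 2, and 5 of those reached 3. These values chose the members and describe them without a test. Over all 11902 tested genes the medians were 0.13 and -0.37, so the TPM scale itself placed LPS+ApoA-I slightly above LPS and LPS below Control.

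The bound of 0.4 cut through a continuous range. The members just inside it had values of 0.409, 0.413 and 0.420, and the genes just outside it had 0.385, 0.389 and 0.398. The nearest of these, at 0.398, was an abundant gene with means of 1481 TPM in LPS+ApoA-I and 1123 TPM in LPS libraries.

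Summed over members, levels were highest with LPS and ApoA-I together and lowest in Control libraries on average. The rule fixed the order of the LPS+ApoA-I, LPS and Control means, so that order describes the choice. The 49 members held 0.615%, 0.614%, 0.613% and 0.602% of all TPM in the LPS+ApoA-I libraries, and 0.387%, 0.395%, 0.407% and 0.427% in the LPS libraries. With ApoA-I alone they held 0.227%, 0.176%, 0.176% and 0.154%, against 0.131%, 0.144%, 0.115% and 0.157% in Control libraries. The LPS+ApoA-I libraries were close to one another and above all LPS libraries, while the ApoA-I and Control libraries overlapped. In bulk RNA, fewer cells of a type and less RNA per cell cannot be told apart.

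One member dominated the sum, contributing 42.5% of it in LPS+ApoA-I libraries. The median over members weighs them equally, and its order over the LPS+ApoA-I, LPS and Control groups likewise follows from the rule. It lay 2.003 to 2.225 log2 units above the Control mean in LPS+ApoA-I libraries, 1.06 to 1.44 in LPS libraries, 0.16 to 0.55 in ApoA-I libraries and -0.19 to 0.15 in Control libraries. On this measure ApoA-I 1, at 0.55, was the highest of the ApoA-I libraries, and Control 4, at 0.15, the highest of the Control libraries, just under the lowest ApoA-I library.

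LPS 4, which held the least of the 8 abundant genes in its group, was the highest LPS library on both measures (0.427% and 1.44). Without it the rule chose 56 genes, 44 of them members. In LPS+ApoA-I against LPS, a contrast used by the rule, edgeR then called 39 of the 47 tested members higher. With all libraries it called 41, beside 26.4% of all tested genes. What sets this library apart was not tested.

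**Figure D2:**
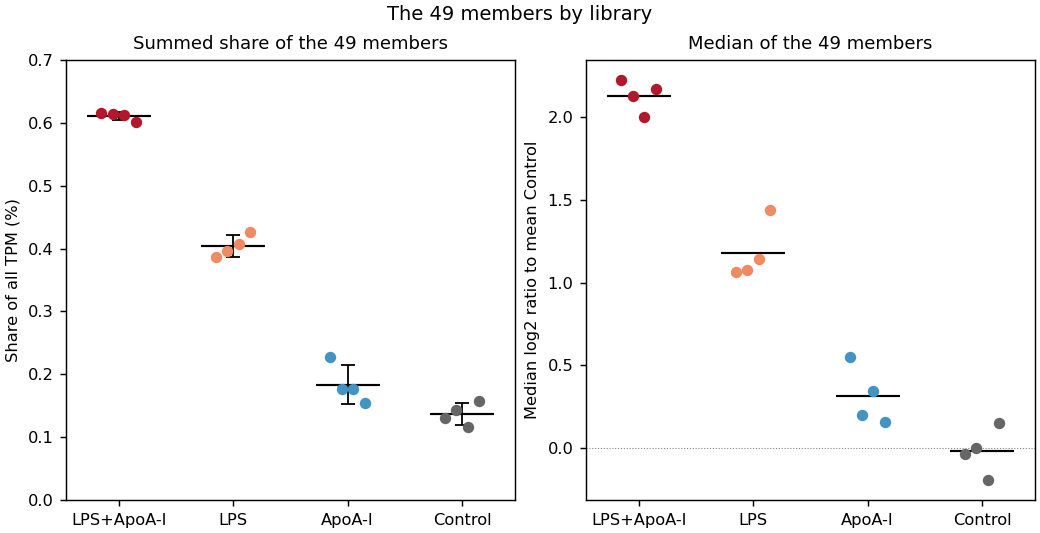
The left panel gives the share of all TPM held by the 49 members in each library, with bars and whiskers for the group mean ± SD (n = 4). The right panel gives the median over members of log2((TPM + 1)/(mean Control TPM + 1)), with bars for the group mean; LPS+ApoA-I libraries lie between 2.003 and 2.225 and LPS libraries between 1.06 and 1.44.

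Levels differed widely between members. In LPS+ApoA-I libraries the members' means ran from 2.35 to 2595 TPM with a median of 31.3, and in LPS libraries from 0.983 to 1815 TPM with a median of 16.7. In ApoA-I libraries the median was 6.66 TPM and in Control libraries 4.38 TPM. In the untreated Control group the members were a mixture of near-silent and active genes. A Control mean under 1 TPM was found in 12, 1 to under 10 in 21, 10 to under 100 in 14, and 100 or more in 2.

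Most members stood clear of the spread between libraries. Every LPS+ApoA-I library was above every LPS library in 44 of 49 members, where 32.1% of all tested genes had this order, and every LPS library was above every Control library in 45 of 49, against 16.1% of tested genes; both orders follow from contrasts used by the rule. The SD of log2(TPM + 1) between replicates had a median over members of 0.10 within LPS+ApoA-I, 0.16 within LPS, 0.29 within ApoA-I and 0.26 within Control libraries.

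**Figure D3:**
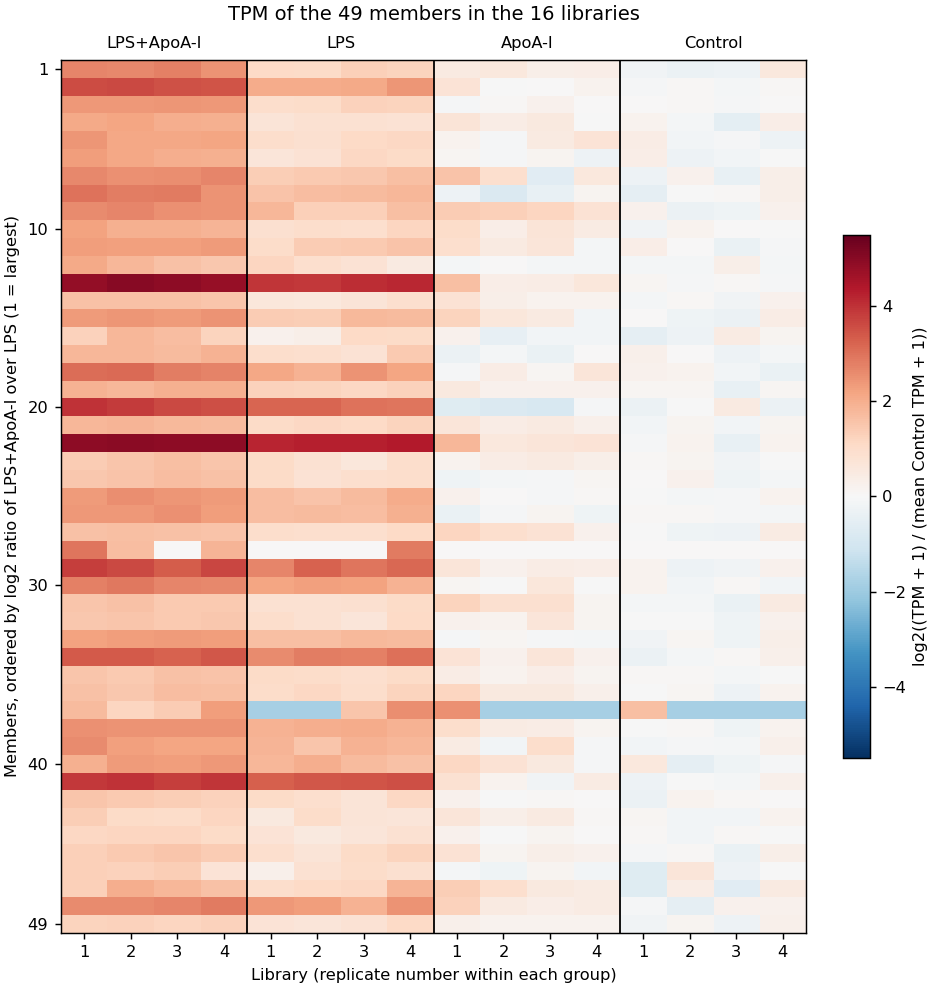
Rows are the 49 members, from the largest to the smallest log2 ratio of LPS+ApoA-I over LPS, and columns are the 16 libraries. Colour gives log2((TPM + 1)/(mean Control TPM + 1)); all but 5 rows are higher in each LPS+ApoA-I library than in any LPS library, and the patchy rows 28 and 37 are the members with 6 and 11 counts in all.

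Of the 5 members that overlapped, 2 owe their place to a handful of reads. One had 5 counts over the LPS+ApoA-I libraries, 3 over the LPS, 2 over the ApoA-I and 1 over the Control libraries, which its very short effective length turned into means of 10.8, 7.27, 4.78 and 2.56 TPM. The other had 4 counts over the LPS+ApoA-I and 2 over the LPS libraries and none in the 8 libraries without LPS. Both failed edgeR's filter on low counts, which left 47 tested members, and for neither was a difference detectable at this depth. A further 2 members had counts that were not whole numbers in all 16 libraries, which reads shared between similar gene copies can give, so their values are uncertain.

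On counts scaled by TMM (edgeR's trimmed mean normalization) the further rise was somewhat smaller than on TPM. The log2 change in LPS+ApoA-I against LPS ran from 0.28 to 1.38 over the 47 tested members, with a median of 0.56 against 0.03 over all tested genes. It was above 0 in 47 of 47 with TMM, DESeq2 size factors, library totals and log2(TPM + 1), although the median of all genes moved to 0.18 with library totals. At an adjusted p under 0.05 edgeR called 41 of 47 higher, beside 26.4% of all tested genes, and called 0 lower, beside 24.9%. LPS against Control called 47 of 47 higher, beside 36.3%, and 0 lower, beside 38.4%. As the rule used these contrasts, the counts describe the choice and support nothing further.

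Choosing the genes on TMM-scaled CPM in place of TPM gave 65 genes, of which 37 were among the 49 (75.5% of the members and 56.9% of the 65). Of the 49 members, 36 were chosen again each time 1 of the 12 libraries was left out.

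ENSRNOG00000021724 had the largest further rise. It had 99.4, 95.9, 105 and 85.8 TPM in the LPS+ApoA-I libraries, against 31.6, 31.0, 37.3 and 34.9 TPM in the LPS libraries. In ApoA-I libraries it had 20.7, 21.9, 18.4 and 19.1 TPM, against 12.4, 11.2, 11.8 and 22.3 TPM in Control libraries. The groups with LPS were far apart, while the Control library 4 was higher than any ApoA-I library. Its log2 change on counts was 1.38 (SE 0.14) in LPS+ApoA-I against LPS, and 0.39 (SE 0.18, edgeR adjusted p = 0.225) in ApoA-I against Control. Without Control 4 the last value was 0.69 (edgeR adjusted p = 0.00239).

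ENSRNOG00000019141 was the most abundant member. Its level was 2650, 2571, 2572 and 2588 TPM in the LPS+ApoA-I libraries, against 1756, 1851, 1886 and 1769 TPM in the LPS libraries. ApoA-I libraries had 914, 629, 616 and 514 TPM, against 450.2, 490.1, 388 and 524 TPM in Control libraries. With LPS the groups did not overlap, and without LPS the lowest ApoA-I library lay under the highest Control library. On counts the log2 change was 0.38 (SE 0.11) in LPS+ApoA-I against LPS and 0.45 (SE 0.11, edgeR adjusted p = 0.0196) in ApoA-I against Control. The last call was lost without ApoA-I 1, the highest of its group (0.30, edgeR adjusted p = 0.0821), without Control 1 (0.43, edgeR adjusted p = 0.0592) and without Control 3 (0.39, edgeR adjusted p = 0.0779).

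**Figure D4:**
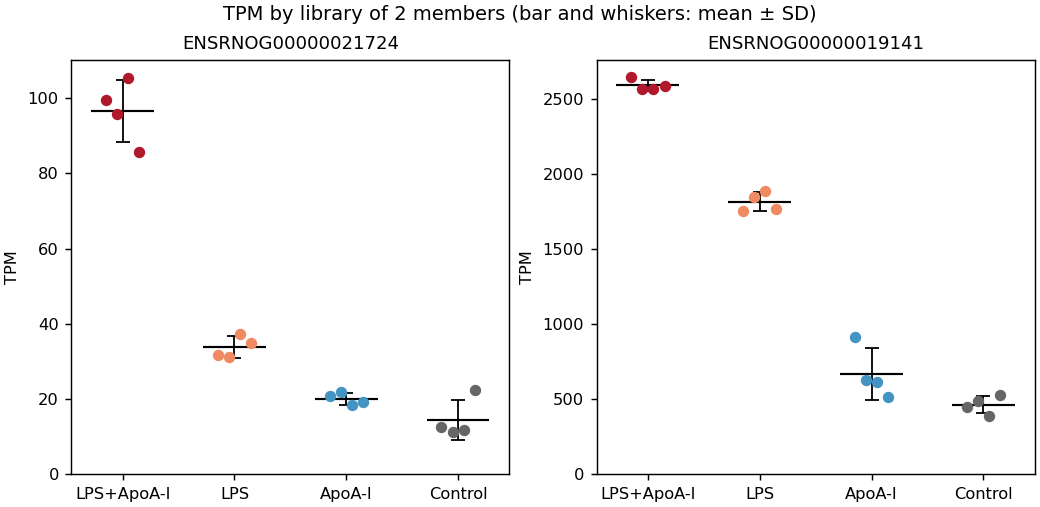
TPM of ENSRNOG00000021724 (left) and ENSRNOG00000019141 (right) in each of the 4 libraries of each group, with mean ± SD. ENSRNOG00000021724 averages 96.6 ± 8.22 TPM in LPS+ApoA-I against 33.7 ± 2.95 TPM in LPS libraries, and ENSRNOG00000019141 averages 2595 ± 37.1 TPM against 1815 ± 63.4 TPM (SD, n = 4 each).

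The rule used the Control libraries but not the ApoA-I libraries, so 1 side of ApoA-I against Control took part in the choice. In that comparison a part of the members was called higher. In ApoA-I against Control, edgeR called 10 of the 47 tested members higher (21.3%) at an adjusted p under 0.05, beside 2.50% of all tested genes, and 0 lower, beside 1.77%. The low count filter used all 16 libraries, and 40 members passed it on the 8 libraries without LPS alone. The remaining tested members passed with the help of libraries with LPS, where the rule chose them to be high. The called gene with the largest change, described below, was among them. At an unadjusted p under 0.05 there were 26 higher, beside 1193 of the 11902 tested genes (10%), and 2 lower, beside 1054 (8.86%). The count varied with the fit, with 3 of 40 members called when only the 8 libraries compared were fitted, 19 with DESeq2 (18 higher, 1 lower) and 17 without Control 4, while over all genes it was 94, 806 and 775 in the same order, against 508. The log2 change had a median of 0.33 over the tested members and of 0.00 over all tested genes, and it was above 0 in 35 of 47 members (74.5%) and in 49.8% of all tested genes. Every ApoA-I library lay above every Control library in TPM in 10 of 49 members (20.4%), beside 5.96% of tested genes. This share was 13.5% in the LPS-induced genes between the bounds and 11.4% in those lowered with ApoA-I. On TMM-scaled CPM the order held in 7 of the 10 called members and in 1 of the 37 other tested members. The calls came from these same counts, so this split describes the calls and is no support for them. The share over all tested genes was not counted on this scale. The opposite order in TPM was found in 0 members, beside 1.55% of tested genes.

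The Control libraries took part in choosing the members, which favours genes with low Control values and so a positive difference here. When the rule was applied with ApoA-I in place of Control, which favours low ApoA-I values, it chose 33 genes, 31 of them members. Of the 32 tested among these, 4 were called higher with ApoA-I (12.5%) and 1 lower, with a median log2 change of 0.18. Among all tested genes 297 were called higher and 211 lower. Each version of the rule used one of the groups compared, and the size of the shift depended on which.

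The 10 called members were mostly genes with a measurable level in Control libraries. Of these, 1 had a Control mean under 1 TPM, against 12 of the 49 members. Against 10 of the 49, 0 of the called members had under 10 TPM in LPS+ApoA-I libraries. Their means in ApoA-I libraries ran from 1.04 to 668 TPM, against 0.123 to 463 TPM in Control libraries, and their log2 changes on counts from 0.23 to 2.85 with a median of 0.69. Every ApoA-I library was above every Control library in TPM in 7 of the 10, beside 5.96% of tested genes, an order that their call favours. ApoA-I 1 was the highest ApoA-I library in 10 of the 10, as it was in 20 of the 37 other tested members and in 48.7% of all tested genes, and without it 8 members were called.

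The largest change among them, 2.85 (SE 0.58, edgeR adjusted p = 0.00721), belonged to a gene close to silent in Control cells, with 56 counts over the ApoA-I and 8 counts over the Control libraries. Its levels were 2.49, 0.43, 0.50 and 0.74 TPM in ApoA-I libraries, against 0.20, 0.07, 0.16 and 0.06 TPM in Control libraries. The groups did not overlap, but the difference rests on few reads. Without ApoA-I 1 it was 2.01 (SE 0.44, edgeR adjusted p = 0.0191). The gene passed the low count filter only with the help of libraries with LPS, where the rule chose it to be high. With LPS it had 30.1 to 35.3 TPM in LPS+ApoA-I libraries, against 15.9 to 18.6 TPM in LPS libraries.

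The smallest adjusted p, 0.000347 by edgeR, belonged to a gene with 5.44 to 8.74 TPM in ApoA-I libraries, against 1.95 to 3.39 TPM in Control libraries. In the presence of LPS it had 19.5 to 22.9 TPM in LPS+ApoA-I libraries, against 8.20 to 12.1 TPM in LPS libraries. Its groups were separate in both settings, with log2 changes of 0.97 with LPS and 1.36 without it.

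Of the 37 tested members that were not called in ApoA-I against Control, 25 had values above 0 and 12 below, from -1.44 to 1.18. Their SE had a median of 0.23, against 0.13 in the called members, and their median mean level was 3.62 TPM in Control libraries, against 20.6 TPM for the called members. A missing call therefore does not show that ApoA-I alone left these genes at the Control level.

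**Figure D5:**
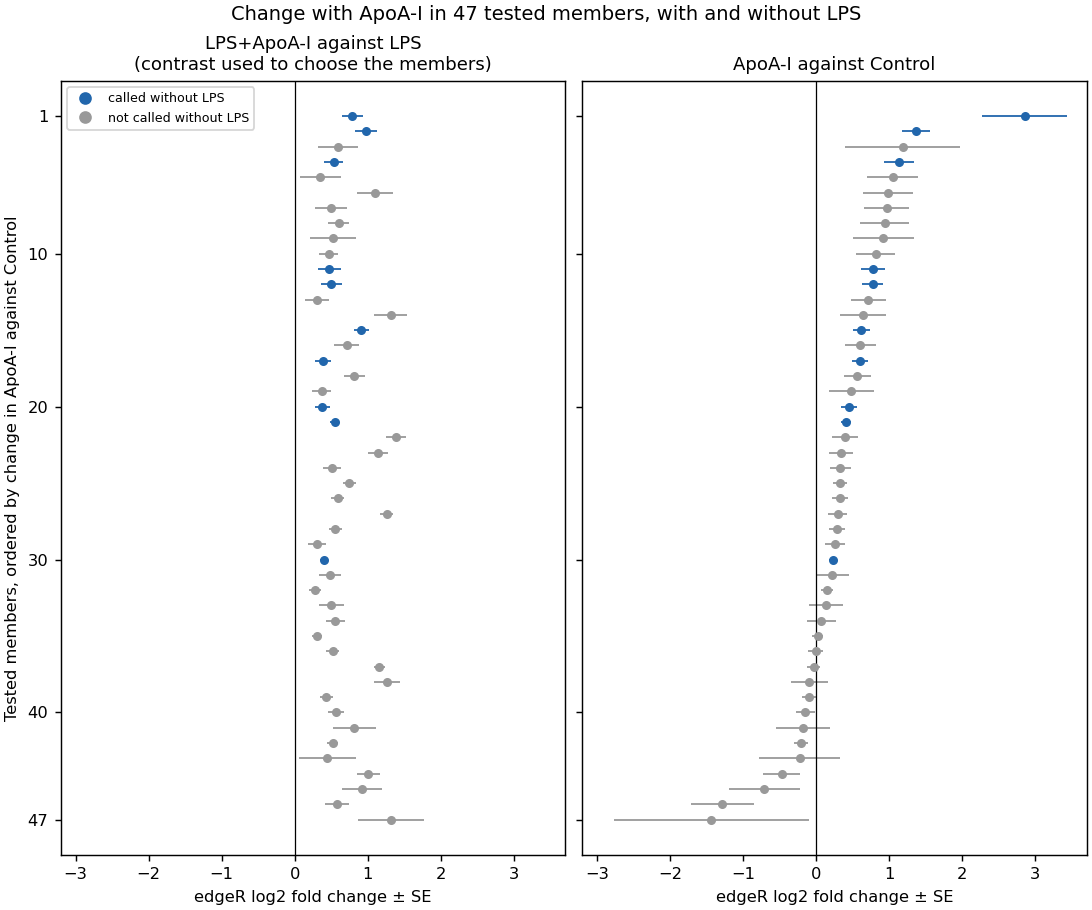
Each row is one of the 47 tested members, ordered by the change in ApoA-I against Control. The x axes give edgeR log2 fold changes with whiskers of 1 SE, in LPS+ApoA-I against LPS on the left and in ApoA-I against Control on the right; the 10 members called in ApoA-I against Control, in blue, lie between 0.23 and 2.85 there.

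Among the 10 members called without LPS, the change with ApoA-I had a median of 0.51 log2 units in the presence of LPS and 0.69 in its absence. Among the 37 others the medians were 0.56 and 0.29. The interaction (the effect of ApoA-I with LPS minus its effect without LPS) was called positive in 14 of 47 tested members, beside 20.8% of all tested genes, and negative in 1, beside 20.2%. The negative call was the near-silent gene described above. The rule used part of this contrast, so these counts describe the members without a test. The medians without LPS follow from splitting the members by their call there and are not a comparison of the 10 with the 37.

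With ApoA-I in the medium of both groups compared, all 47 tested members were higher with LPS than without it. In LPS+ApoA-I against ApoA-I their log2 changes on counts ran from 1.04 to 6.29 with a median of 2.38, and edgeR called 47 of 47 higher, beside 34.5% of tested genes. For LPS against Control the median was 2.11. The LPS+ApoA-I libraries were chosen to be high, so nothing is read from this count.

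Other LPS-induced genes were set beside the members for ApoA-I against Control, since all 3 groups had the same bound on LPS over Control. The bound on LPS+ApoA-I over LPS differed between them, so the groups were not selected alike in their LPS values. Of the 434 tested genes that ApoA-I lowered in LPS-treated cells, 52 were called higher with ApoA-I alone (11.98%) and 16 lower (3.69%). Of the 354 between the bounds, 35 were higher (9.89%) and 1 lower (0.282%). The median log2 change was 0.33 in the members, 0.09 in the lowered genes and 0.09 in those between. Whether the members' share differs from these was not tested.

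The ratio of a gene's count share to its TPM is proportional to the effective length that the authors' processing gave it. Set to 1 at the median of all tested genes, it had a median of 0.699 in the 47 tested members, with quartiles of 0.456 and 0.972. In the other 788 tested LPS-induced genes, chosen with the same minimum TPM, the median was 0.926 with quartiles of 0.568 and 1.45. The quartile ranges overlapped and no test was made. Without the minimum TPM the rule chose the same 49 members. The 1 added to each mean by itself keeps low levels from meeting the bounds, and with 0.5 added the rule chose 59 genes. Why the members' values lay lower was not tested.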

How the data were processed

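Bulk RNA sequencing was deposited for 16 libraries, grouped by their titles. The authors deposited a table of estimated counts, the expected count of reads per gene, and a table of TPM values. Of the estimated counts as deposited, 3.24% were not whole (tolerance 0.005). Tools named in the submitters' processing notes, with no role or order, are RSEM 1.3.1, STAR 2.7.10b and cutadapt 1.8.1. The notes name the mouse build mm10, although the identifiers are Ensembl rat. Which annotation was used is not given in the sources. An annotation that did not match would affect single genes, and this was not tested.

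Counts were rounded. Genes were kept by filterByExpr (minimum count 10), and edgeR 4.0.16 (R 4.3.3) fitted 1 mean per group to all 16 libraries after TMM scaling. Its quasi-likelihood F test was adjusted by Benjamini-Hochberg over 11902 genes, and adjusted p under 0.05 was called. An SE is the size of the log2 change over the square root of F. DESeq2 1.42.0 and limma 3.58.1 on log2(TPM + 1) served as alternatives. Members, lists and comparisons were chosen with earlier results of these data known. The planned gene and marker lists and the rule for naming genes needed symbols, and the RefSeq table (GRCr8) pairs 0 of 47357 genes with an Ensembl identifier; the planned fallback of at most 2 identifiers that rose and 2 that fell was used, and edgeR called 0 members lower in ApoA-I against Control (DESeq2 called 1). Which 2 to print, the largest further rise and the highest level, was chosen after values were seen. The 8 abundant genes have at least 1000 mean CPM and deviations from group means correlated above 0.95 with the top gene's. No pair of replicates agreed within counting noise: over 24 pairs, chi-square divided by its degrees of freedom ran from 3.14 to 96.23. Pairs with LPS 4 had 78.39 to 96.23, against 3.997 to 5.262 in the other LPS pairs. Pairs with ApoA-I 2 had 54.59 to 72.41.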

Additional observations from a re-analysis of the deposited data

Results flagged for a closer look

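A part of the per-library values given above, 20 groups of 4, was looked at by Dixon's test. The following 2 values lay apart at the 95% level. Over 20 groups of values, chance gives about 1 such result in 20. ENSRNOG00000021724 had 22.3 TPM in Control 4, against 11.2 to 12.4 TPM in the other Control libraries. The library ApoA-I 2 had 9.43% of its counts in the 8 abundant genes, against 1.61% to 2.66% in the other ApoA-I libraries. The near-silent gene called in ApoA-I against Control was not among the groups looked at. It had 2.49 TPM in ApoA-I 1, against 0.43 to 0.74 TPM in the other ApoA-I libraries, and this value also lies apart by the same measure. Without Control 4, 17 tested members were called in ApoA-I against Control by edgeR, and without ApoA-I 2 it was 10; with the share of the 8 genes as a covariate it was 10.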

How the results depend on the processing

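The number of members was 43 to 65 under the other forms of the rule that were planned, and 44 to 56 when 1 of the 12 libraries was left out. The number of members called in ApoA-I against Control was 10; it was 19 with DESeq2 (18 higher, 1 lower), 3 when only the 8 libraries compared were fitted (40 members tested), and 5 with ApoA-I in place of Control in the rule, a choice added after seeing the data. Leaving out 1 library gave 8 to 17, with 17 without Control 4 and 1 lower call without ApoA-I 4. Over all genes the same comparison had 508 calls, with 806 by DESeq2, 310 by limma on log2(TPM + 1), 94 with only the libraries compared, 224 with the share of the 8 abundant genes as a covariate (also added), and 186 to 775 without 1 library: the count was 186 when ApoA-I 1 was left out, and 284, 325, 202 and 775 when Control 1, 2, 3 and 4 were left out in turn. All 10 members were among those called with DESeq2 size factors, library totals, limma, DESeq2, no filter on low counts and the covariate. Same-numbered libraries did not deviate together (r from -0.25 to 0.15, over 0.1 in 2 of 24 pairs); with the replicate number as a block, 10 members and 469 genes were called. Members called higher in LPS+ApoA-I against LPS numbered 38 to 42 without 1 library, against 41.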
